A study of Mus musculus with 52 samples.

Results

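Large H3K27me3 domains of mouse embryonic fibroblasts (MEF) were followed through reprogramming to induced pluripotent stem (iPS) cells and set beside embryonic stem (ES) cells. The domains were chosen by H3K27me3 peak width in MEF. A domain was a peak of the Mbd3+/+ MEF H3K27me3 list with end minus start of at least 5000 bp that shared at least 1 bp with the Mbd3flox/- MEF H3K27me3 list. Of the 36232 peaks in the Mbd3+/+ MEF list, 1734 reached that width, 9 of those met no Mbd3flox/- peak, and 1725 were kept. They made up 4.76% of the peaks and 24.4% of the bases of the list, 15.3 Mb in all. Another 20400 peaks of the list that overlapped the Mbd3flox/- list were under 5000 bp and served as the comparison, so that 22125 shared peaks were examined in all.

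The study followed cells of 3 Mbd3 genotypes by ChIP-seq, with 1 library for each genotype, stage and antibody. The antibodies were against H3K4me3, H3K27me3, H3K27ac, Oct4, Mbd3 and Mi2B, and 43 peak lists were read. Mbd3 and Mi2B are subunits of the nucleosome remodelling and deacetylase complex NuRD. Because no group had a second library, no difference between stages or genotypes has a replicate error, and the intervals given below cover the counting of regions only.

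The MEF were Mbd3+/+ or Mbd3flox/- and carried a transgene for doxycycline-inducible OSKM, the reprogramming factors Oct4, Sox2, Klf4 and c-Myc. They were profiled before doxycycline, on days 4 and 8 of doxycycline at 2 µg/ml, and as iPS cells of the same 2 genotypes, and the ES cells were Mbd3-/-. The flox/- genotype has 1 loxP-flanked and 1 null Mbd3 allele. The selected Mbd3+/+ clone carried the GOF18 deltaPE-Oct4-GFP reporter, and the Mbd3flox/- and Mbd3-/- cells carried the complete GOF18 Oct4-GFP reporter, both inserted at random. MEF grew in serum medium, whereas iPS cells, ES cells and the cells of days 4 and 8 grew in 2i/LIF medium, so a change from MEF to a later stage and the change of medium cannot be told apart. Genotype cannot be told apart from clone and reporter, and ES cells differed from iPS cells in origin and genotype together. The stage label of the Mbd3+/+ day 4 H3K27me3 sample says day 5, and its title, day 4, was followed. The H3K27me3 of Mbd3flox/- cells on day 8 was not analysed here.

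H3K27me3, trimethylation of lysine 27 of histone H3, is written by Polycomb repressive complex 2 and marks genes kept silent, among them many developmental regulators such as the Hox clusters. In pluripotent cells many such regions also carry H3K4me3, the mark of promoters that Trithorax-group enzymes write, a state called bivalent. H3K27ac marks active promoters and enhancers and occupies the same lysine as H3K27me3, so that both cannot sit on 1 histone tail. No Polycomb protein was among the antibodies of these lists, so the name Polycomb domain rests on H3K27me3 alone, and marker genes of fibroblasts were not placed because no gene annotation of the mm9 build was used.

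The width that chose the domains ranged from 5001 to 85007 bp, with a median of 6984 bp and quartiles of 5751 and 9756 bp, against a median of 1097 bp for the whole list. There were 411 domains of at least 10000 bp, 71 of at least 20000 bp and 6 of at least 40000 bp. The authors' deposited score had a median of 1193 in the domains and 86.8 in the whole list. Mbd3flox/- MEF peaks covered a median of 95.3% of a domain, and 842 domains lay under a single Mbd3flox/- peak whereas 883 met 2 or more. With the stricter demand that 50% of the domain be covered in Mbd3flox/- MEF, 1689 domains were kept, against 83.6% of all shared peaks. The 3 narrowest domains were 5001, 5006 and 5008 bp wide and the 3 widest peaks left out were 4996, 4996 and 4995 bp, so nothing but the threshold separates them. Of the 3 left out, the one at chr10:114235595-114240590 was covered by H3K27me3 at 24.7% in Mbd3+/+ iPS cells, 53.8% in Mbd3flox/- iPS cells and 31.0% in ES cells, and the one at chr15:39686553-39691547 had none in these 3 lists. Inside the threshold, chr11:103666313-103671318 was covered at 37.0%, 57.4% and 41.4% in the same order, and chr17:25413324-25418324 had none.

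The domains lay on 20 chromosomes, counting X, and were unevenly spread. Chromosome 2 held 222 (12.9%) and chromosome X held 4. Of the shared peaks on chromosome 2, 9.47% were large, against 2.92% on X. Taking domains under 50000 bp apart as a cluster, 876 domains (50.8%) fell into 315 clusters and 849 stood alone, with a median gap of 244 kb over all neighbours. Among the clusters, 30 were of 5 or more domains. The cluster of most domains, 11, spanned chr2:164901051-165082942, followed by 10 domains at chr15:102724465-102957067 and 9 at chr2:118496784-118638904.

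In iPS and ES cells most domains had an H3K27me3 peak, but peaks covered a small share of their length. Peaks of the Mbd3+/+ iPS list lay in 1266 domains (73.4%, 95% Wilson interval 71.3 to 75.4), against 19.0% of all shared MEF peaks. The Mbd3flox/- iPS list had peaks in 1125 domains (65.2%, 62.9 to 67.4), against 14.9%, and the ES list in 1264 (73.3%, 71.1 to 75.3), against 20.6%. The share of all domain bases under H3K27me3 peaks, called pooled cover here, was 17.8% in Mbd3+/+ iPS cells, 24.6% in Mbd3flox/- iPS cells and 19.6% in ES cells. Per domain the median cover was 11.7%, 15.2% and 11.0% in that order. A domain that was 1 peak in Mbd3+/+ MEF thus met a run of short peaks in these lists. The average was 5.65 per domain with any in Mbd3+/+ iPS cells, 3.12 in Mbd3flox/- iPS cells and 6.70 in ES cells, and up to 59 lay in a single domain. On days 4 and 8 the pooled cover was 0.299% to 1.67%. Whether H3K27me3 of iPS cells was retained from MEF or laid down anew was not tested, and ES cells differed in origin. With scores of at least 100 the pooled cover was 9.00%, 17.9% and 11.6%. The median peak width of the 3 lists was 262, 619 and 216 bp, so list-wide peak width moved with the number of pieces, and its part in the result was not tested. From 25.5% to 27.4% of all H3K27me3 peaks of these lists, and from 32.0% to 35.4% of their bases, were inside the domains.

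**Figure D1:**
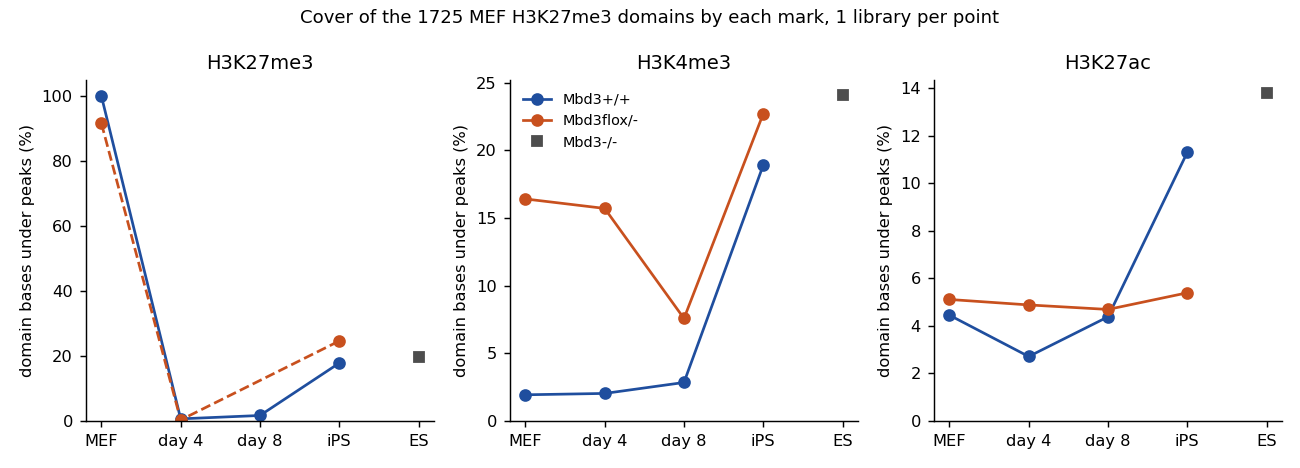
Share of all bases of the 1725 domains under peaks (y axis, %) of H3K27me3, H3K4me3 and H3K27ac by stage (x axis), with 1 library per point, blue for Mbd3+/+, orange for Mbd3flox/- and grey for Mbd3-/- ES cells; the dashed line joins stages across day 8, which has no Mbd3flox/- H3K27me3 value, and each panel has its own scale. H3K27me3 cover was under 2% on days 4 and 8 and between 17.8% and 24.6% in iPS and ES cells.

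H3K27me3 cover rose with MEF peak width within the domains and below the threshold. The pooled H3K27me3 cover in Mbd3+/+ iPS cells was 1.61% in the 6537 shared peaks under 1000 bp, 7.81% in the 3610 peaks of at least 2500 and under 5000 bp, 11.4% in the 537 domains under 6000 bp and 29.7% in the 71 domains of at least 20000 bp. Over the same classes Mbd3flox/- iPS cells went from 2.00% to 39.7% and ES cells from 2.07% to 35.0%, rising at each step in all 3 lists. A wide region meets a peak more easily than a short one, so a window of 250 bp either side of each peak's midpoint was also read. An Mbd3+/+ iPS H3K27me3 peak met the window of 40.3% of domains and 8.44% of shorter peaks, a difference of 31.9 points (95% Newcombe interval 29.6 to 34.3). In Mbd3flox/- iPS cells the difference was 32.3 points (29.9 to 34.6) and in ES cells 29.7 points (27.4 to 32.0). H3K27me3 was therefore found more often at large MEF domains than at shorter MEF peaks in each of the 3 lists at equal window width. The domains also had higher deposited scores in MEF, with a median of 1193 against 86.8 in the whole list. Equal windows do not separate width from score, and the part of each was not tested. With scores of at least 100 the differences were 16.2, 24.3 and 17.9 points, and with domains from the Mbd3flox/- MEF list 21.7, 24.9 and 22.8 points. Across domains the cover in iPS and ES cells had a Spearman's rho of 0.28 to 0.30 with domain width, over 1725 domains that share their libraries.

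**Figure D2:**
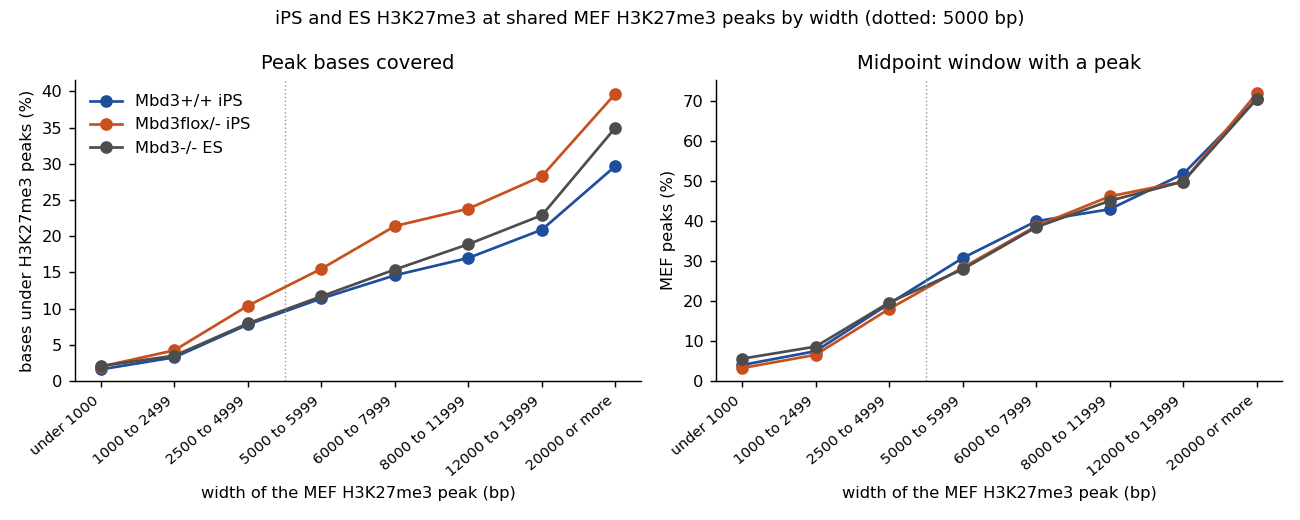
Shared MEF H3K27me3 peaks by width class (x axis, bp) with the share of their bases under iPS or ES H3K27me3 peaks (left, %) and the share of them whose 500 bp midpoint window met such a peak (right, %), for Mbd3+/+ iPS (blue), Mbd3flox/- iPS (orange) and Mbd3-/- ES cells (grey); the dotted line is the 5000 bp threshold. Cover rises at each step, from 1.61% to 29.7% in Mbd3+/+ iPS cells, with no jump at the threshold.

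Domains were sorted by how much of their length H3K27me3 covered, as held (at least 50%), part (above 0 and under 50%) or none. In Mbd3+/+ iPS cells 62 domains were held, 1204 part and 459 none. In Mbd3flox/- iPS cells the counts were 234, 891 and 600, and in ES cells 107, 1157 and 461. Of all 22125 shared peaks, 1.46%, 4.33% and 1.88% were at least 50% covered in the same 3 lists, against 3.59%, 13.6% and 6.20% of the domains. With scores of at least 100 these shares of held domains were 0.406%, 7.36% and 2.55%, in the same order of lists. The domains with H3K27me3 were largely shared between lists. Of them, 1000 (58.0% of all domains) had a peak in all 3, against 10.0% of all shared peaks, and 44 were held in all 3 (2.55%, against 0.642%). No H3K27me3 peak of any of the 3 lists lay in 302 domains (17.5%, against 71.7%). Across domains the cover in both iPS lists had a Spearman's rho of 0.82, and the rho between iPS and ES cells was 0.80 and 0.81.

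**Figure D3:**
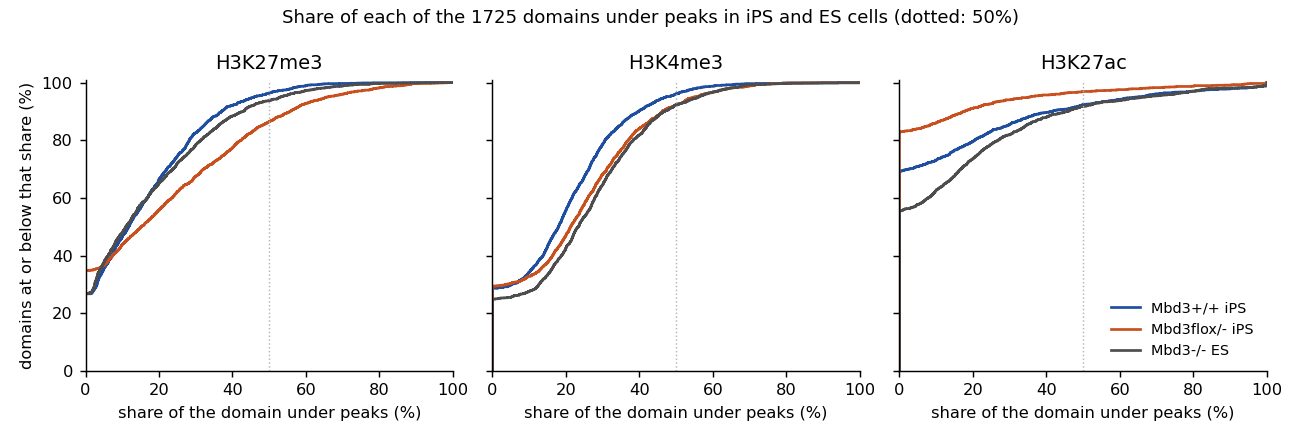
Cumulative share of the 1725 domains (y axis, %) by the part of each domain under peaks (x axis, %) of H3K27me3, H3K4me3 and H3K27ac in Mbd3+/+ iPS (blue), Mbd3flox/- iPS (orange) and Mbd3-/- ES cells (grey), with 50% dotted. The height at 0 is the share of domains with no peak, and the H3K27me3 curve of Mbd3flox/- iPS cells crosses the others, with more domains at 0 (600) and more at 50% or above (234).

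H3K4me3 was found in most domains with an H3K27me3 peak. It was present in 98.4% of held, 84.0% of part and 34.9% of none domains of Mbd3+/+ iPS cells. The shares were 97.0%, 84.3% and 40.3% in Mbd3flox/- iPS cells and 100%, 84.1% and 47.3% in ES cells. Over all domains they were 71.4%, 70.7% and 75.2% in the 3 cell types, against 17.0%, 16.9% and 19.7% of all shared peaks. The classes also differed in width, with medians of 8156, 7522 and 6125 bp in Mbd3+/+ iPS cells. There H3K4me3 was in 57.2% of domains under 6000 bp and in 98.6% of those of at least 20000 bp. The part of width was not tested. H3K27ac had the reverse order in cover: domains without H3K27me3 were covered by H3K27ac at 22.9%, and held domains at 5.36%, in Mbd3+/+ iPS cells, against 11.2% and 2.20% in Mbd3flox/- iPS cells and 25.9% and 6.52% in ES cells. At the level of bases, 37.3% of the H3K27me3 in the domains also lay under H3K4me3 peaks in Mbd3+/+ iPS cells, 46.7% in Mbd3flox/- iPS cells and 38.1% in ES cells. The same shares with H3K27ac were 6.98%, 2.46% and 8.45%. Thus the 2 marks of the bivalent state overlapped over 37.3% to 46.7% of the H3K27me3 bases, and the 2 marks of lysine 27 over 2.46% to 8.45%. Peak lists do not show whether both marks were on the same molecules. Across domains, H3K27me3 cover had a Spearman's rho of 0.46 to 0.51 with H3K4me3 cover and of -0.16 to -0.11 with H3K27ac cover in the 3 cell types.

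The marks of pluripotent cells lay towards the middle of the MEF domains. Each domain was split in 10 equal parts. H3K27me3 of Mbd3+/+ iPS cells covered 24.6% of the middle 2 parts and 8.45% of the outermost 2. Corresponding values were 34.5% and 10.8% in Mbd3flox/- iPS cells and 25.4% and 9.79% in ES cells. H3K4me3 was similarly central, at 29.1% and 10.9% in Mbd3+/+ iPS cells, and H3K27ac less so, at 13.7% and 8.60%. The Mbd3flox/- MEF H3K27me3 list, which helped choose the domains, covered 95.9% of the middle and 79.3% of the outer parts. Central cover was not limited to pluripotent cells. H3K4me3 of Mbd3flox/- MEF covered 23.8% of the middle and 11.1% of the outer parts. For H3K27me3 of Mbd3+/+ day 4 cells the values were 1.03% and 0.245%, and for H3K4me3 of Mbd3+/+ MEF 2.43% and 2.10%. The domain edges are peak edges of the Mbd3+/+ MEF list, and their part in this was not tested.

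**Figure D4:**
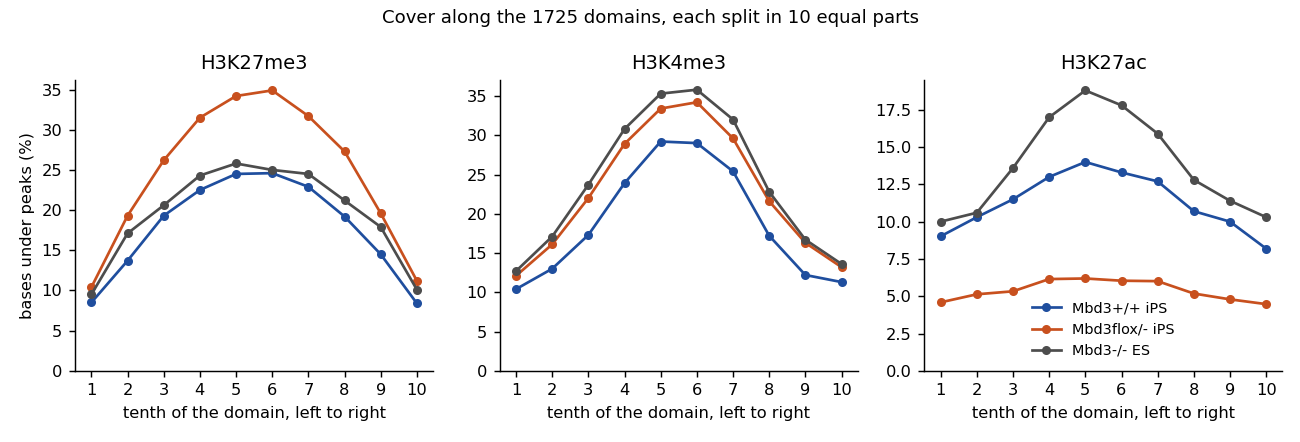
Share of bases under peaks (y axis, %) in each of 10 equal parts of the 1725 domains from left to right on the genome (x axis), for Mbd3+/+ iPS (blue), Mbd3flox/- iPS (orange) and Mbd3-/- ES cells (grey), 1 library per line and a scale per panel. H3K27me3 and H3K4me3 peak in the middle parts, at 24.6% and 29.1% for Mbd3+/+ iPS cells, and fall to both edges.

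On day 4 neither H3K27me3 list had a peak of 5000 bp or more in a domain, and short peaks were left, the widest of 4276 bp. The Mbd3+/+ day 4 list held 570 peaks with a median width of 194.5 bp, and 460 of them (80.7%, Wilson interval 77.3 to 83.7) lay in the domains. The Mbd3flox/- day 4 list was of nearly the same length, 567 peaks, but 177 (31.2%, 27.5 to 35.1) lay in the domains and 278 (49.0%) were outside the Mbd3+/+ MEF list altogether. The Mbd3+/+ day 8 list held 939 peaks, 342 of them (36.4%, 33.4 to 39.5) in the domains. Counted by domain, 308 had a peak in Mbd3+/+ day 4 cells (17.9%, against 1.73% of all shared peaks), 141 in Mbd3flox/- day 4 cells (8.17%, against 1.04%) and 271 in Mbd3+/+ day 8 cells (15.7%, against 2.08%). At least 1 of the 3 lists had a peak in 533 domains (30.9%, against 3.94%), and 1192 domains had none. The median score of the day 4 and day 8 peaks in the domains was 55.6 to 59.5, close to the lowest score of any list, 50. With scores of at least 100 the domains with a peak were 1.28%, 0.174% and 0.870%, so the peaks left are near the authors' calling threshold, and a peak over at least 10% of the domain was left in 0.232%, 0.116% and 4.87%. These lists are also the shortest of the H3K27me3 lists, which reach 36232 peaks in MEF, and a loss of the mark and a weaker library cannot be told apart, as the depth is unknown.

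Peaks left on days 4 and 8 were found more often in wider domains. A Mbd3+/+ day 4 peak was found in 6.33% of domains under 6000 bp and in 76.1% of those of at least 20000 bp. In midpoint windows of equal width the share was 1.49% and 7.04% in the same classes. Among domains of at least 10000 bp, 41.6%, 17.5% and 34.3% had a peak in Mbd3+/+ day 4, Mbd3flox/- day 4 and Mbd3+/+ day 8 cells. Domains with a Mbd3+/+ day 4 peak had a median width of 10882 bp, those with a peak in at least 1 of the 3 lists 9616 bp, and the 1192 with none 6484 bp. For the Mbd3+/+ day 4 domains the median H3K27me3 cover was 27.3% in Mbd3+/+ iPS, 39.2% in Mbd3flox/- iPS and 29.6% in ES cells, against 7.06%, 7.24% and 6.28% in the 1192. Of the in-domain peaks of Mbd3+/+ day 4, 63.5% lay on an H3K27me3 peak of Mbd3+/+ iPS cells, 72.6% on one of Mbd3flox/- iPS cells and 59.1% on one of ES cells. These lists covered 27.9%, 38.5% and 31.4% of the bases of the 308 domains. A whole peak meets a list by 1 bp more easily than a single base does. The covers are therefore no chance level for the shares of peaks, and an excess was not tested. The lists chose partly different domains: Mbd3+/+ and Mbd3flox/- day 4 shared 61, Mbd3+/+ days 4 and 8 shared 103, and 31 domains were in all 3. The genotypes also differed in the company of these peaks, since 54.8% of the in-domain Mbd3flox/- day 4 peaks and 5.65% of the Mbd3+/+ day 4 peaks lay on H3K4me3 of the same cells, where the H3K4me3 lists themselves cover 15.7% and 2.03% of the domains. Here too the covers are shares of bases and no chance level for an overlap of 1 bp.

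A pair of domains stood apart on day 4. The 17.6 kb domain chr17:35634520-35652130 was covered by H3K27me3 at 65.5% in Mbd3flox/- day 4 cells and at 0 in Mbd3+/+ cells on days 4 and 8. In iPS and ES cells its H3K27me3 cover was 0 in Mbd3+/+, 63.7% in Mbd3flox/- and 0 in Mbd3-/-. Over the same bases H3K27ac covered 73.1% in Mbd3flox/- day 4 cells and 100% in both genotypes on day 8, in both iPS lists and in ES cells, and H3K4me3 covered 99.8%, 100% and 73.9% in the 2 iPS lists and ES cells. Peaks of opposite marks thus lay over 1 block in Mbd3flox/- cells. In Mbd3+/+ iPS cells Oct4 peaks covered 98.9% of it, Mbd3 peaks 99.4% and Mi2B peaks 100%. A peak was called there in 31 of the 43 lists, so the overlap was not limited to the histone marks. The cells carry extra copies of Oct4 locus sequence in their reporters, and whether this domain is part of that sequence was not tested, as no mm9 annotation was used. The other was chr17:39979446-39986333, of 6.89 kb, with H3K27me3 at 34.4% in Mbd3+/+ day 4, 81.7% in Mbd3flox/- day 4 and 97.7% in Mbd3+/+ day 8 cells, and at 0, 86.1% and 85.0% in Mbd3+/+ iPS, Mbd3flox/- iPS and ES cells. It also had H3K4me3 at 94.1% in Mbd3+/+ iPS cells and Oct4 at 89.2% in Mbd3+/+ MEF before doxycycline, so peaks of several antibodies were called there. Without this pair the pooled H3K27me3 cover fell from 0.299% to 0.187% in Mbd3flox/- day 4 cells, and was 0.623% in place of 0.637% on Mbd3+/+ day 4 and 1.63% in place of 1.67% on day 8.

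H3K4me3 in the domains differed between the genotypes far more in MEF than in iPS cells. It was present in 346 domains of Mbd3+/+ MEF (20.1%, against 4.93% of all shared peaks) and 1097 of Mbd3flox/- MEF (63.6%, against 15.8%), with a pooled cover of 1.93% and 16.4%. All 346 were among the 1097. On day 4 the counts were 400 and 1104 domains (against 4.99% and 14.6% of all shared peaks) with 2.03% and 15.7% cover, and on day 8 they were 398 and 773 (against 4.41% and 9.06%) with 2.84% and 7.57%. Mbd3+/+ iPS cells had H3K4me3 in 1232 domains (71.4%, against 17.0%) and 18.9% of the bases, Mbd3flox/- iPS cells in 1220 (70.7%, against 16.9%) and 22.7%, and ES cells in 1298 (75.2%, against 19.7%) and 24.1%. The whole H3K4me3 lists of MEF differed in the same direction, spanning 21.1 Mb with a median width of 1088 bp in Mbd3+/+ and 49.0 Mb with 1970 bp in Mbd3flox/- cells. At the shorter shared peaks cover was 1.23% and 7.30%, so the gap was not limited to large domains. With equal numbers of top peaks the MEF cover was 1.93% and 14.0%, and with scores of at least 100 it was 0.994% and 14.5%. Genotype and the strength of the libraries cannot be told apart. Domains with H3K4me3 in Mbd3flox/- MEF had it in Mbd3+/+ iPS cells in 1046 of 1097 cases (95.4%), and domains without it in 186 of 628 (29.6%). Both lists met wider domains more often. From domains under 6000 bp to those of at least 20000 bp the shares went from 48.2% to 93.0% in Mbd3flox/- MEF. In Mbd3+/+ iPS cells they went from 57.2% to 98.6%. The part of width in this contrast was not tested, and it was not set against all shared peaks.

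H3K27ac was rare in the domains in MEF and spread over more of them in iPS and ES cells, in Mbd3+/+ and Mbd3-/- cells more than in Mbd3flox/- iPS cells. It was in 248 domains of Mbd3+/+ MEF (14.4%, against 5.11% of all shared peaks) and 266 of Mbd3flox/- MEF (15.4%, against 4.51%), with a pooled cover of 4.45% and 5.11%. Mbd3+/+ iPS cells had it in 533 domains (30.9%, against 11.3%) at 11.3% cover, Mbd3flox/- iPS cells in 297 (17.2%, against 6.16%) at 5.39%, and ES cells in 772 (44.8%, against 15.2%) at 13.8%. The Mbd3flox/- iPS list was also the shortest in span of these 3, at 64.2 Mb against 122 and 121 Mb, and the part of list span in the difference was not tested; with equal numbers of top peaks the covers were 9.85%, 5.39% and 10.4%. On days 4 and 8 the covers were 2.71% and 4.38% in Mbd3+/+ and 4.88% and 4.69% in Mbd3flox/- cells, in 161 and 262 domains (against 3.35% and 5.29% of all shared peaks) and in 377 and 208 (against 6.20% and 5.35%).

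H3K27ac over at least 50% of a domain marked 132 domains in Mbd3+/+ iPS cells (7.65%, against 6.52% of all shared peaks), 53 in Mbd3flox/- iPS cells (3.07%, against 3.19%) and 142 in ES cells (8.23%, against 7.40%), shares near the background. Of these, 48 were common to all 3 and 185 were in at least 1. In the 48, Mbd3flox/- cells had an H3K27ac peak in 66.7% on day 4 and 85.4% on day 8, and Mbd3+/+ cells in 35.4% and 62.5%. Over all 1725 domains these shares were 21.9% and 12.1% in Mbd3flox/- and 9.33% and 15.2% in Mbd3+/+ cells. The 48 had to pass in Mbd3flox/- iPS cells, where 53 did, so they are no even basis for a genotype contrast. In the 132 domains chosen by Mbd3+/+ iPS H3K27ac the shares were 51.5% and 65.9% in Mbd3flox/- and 24.2% and 53.0% in Mbd3+/+ cells. The Mbd3flox/- and Mbd3+/+ H3K27ac lists held 39499 and 28173 peaks on day 4, and 21237 and 39463 on day 8. Oct4 peaks on day 4 lay in 60.4% of the 48 in Mbd3flox/- and 33.3% in Mbd3+/+ cells, against 26.5% and 10.7% of all domains and with the Mbd3flox/- list the longer, at 33755 peaks against 16785, and in none of them in MEF of either genotype. Of the 302 domains with no H3K27me3 in iPS and ES cells, 146 had H3K27ac in at least 1 of those cell types, 83 had it in all 3, and 150 had none of the 3 marks in any. Domains without H3K27me3 peaks in pluripotent cells were therefore in part acetylated and in part without any of these marks. This split was not set against all shared peaks, so it is not shown to be particular to large domains.

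In MEF themselves a few domains were also largely acetylated. H3K27ac covered at least 50% of 40 domains in Mbd3+/+ MEF (2.32%, against 1.73% of all shared peaks) and 44 in Mbd3flox/- MEF (2.55%, against 1.37%), 24 of them in both. In iPS and ES cells these 24 had higher H3K27me3 cover than the 1401 domains with no MEF H3K27ac in either genotype. The covers of the 24 were 37.3% against 15.7% in Mbd3+/+ iPS, 47.5% against 22.0% in Mbd3flox/- iPS and 40.5% against 17.5% in ES cells. Their H3K27ac cover was 7.37% against 10.4% in Mbd3+/+ iPS, 11.7% against 4.43% in Mbd3flox/- iPS and 11.8% against 12.5% in ES cells. In the cluster of 10 domains on chromosome 15, MEF H3K27ac covered 48.7% of the domain bases in Mbd3+/+ and 41.0% in Mbd3flox/- cells, and iPS H3K27me3 covered 26.9% and 26.7%.

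H3K27me3 in iPS cells differed between the genotypes in shape. The cover per domain was higher in Mbd3flox/- iPS cells in 893 domains (51.8%, against 12.2% of all shared peaks), higher in Mbd3+/+ iPS cells in 442 (25.6%, against 10.2%) and equal in 390. The pooled difference was 6.81 points and the median difference 1.09 points, with quartiles of -0.636 and 13.6. Mbd3flox/- iPS cells nonetheless had a peak in fewer domains, and 210 domains had one in Mbd3+/+ alone against 69 in Mbd3flox/- alone. The Mbd3+/+ list held 26114 peaks of a median 262 bp and the Mbd3flox/- list 13100 of 619 bp; with equal numbers of top peaks the difference was 10.5 points. Whether it reflects the genotype, the clone or the library cannot be told apart.

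Among the Oct4, Mbd3 and Mi2B lists, Mbd3 on day 4 had the largest part of its peaks in the domains. The Mbd3+/+ day 4 Mbd3 list held 1944 peaks, 463 of them (23.8%) in 292 domains (16.9%, against 2.26% of all shared peaks). In MEF 56 domains had an Mbd3 peak (3.25%, against 0.542%) and in iPS cells 193 (11.2%, against 2.70%). In midpoint windows of equal width, Mbd3 met 3.65% of domains and 0.275% of shorter peaks on day 4. The shares were 0.812% and 0.167% in MEF and 3.13% and 1.15% in iPS cells. The in-domain Mbd3 peaks of day 4 were narrow, with a median width of 168 bp, and central, with 1.45% cover in the middle and 0.327% in the outer parts. Of these, 6.48% met a day 4 H3K27ac peak and 6.05% a day 4 Mi2B peak, where H3K27ac and Mi2B covered 2.71% and 0.491% of the domain bases. Outside the domains 48.4% and 27.3% of the Mbd3 peaks met them. An Mbd3 peak was present in 113 of the 308 domains with a Mbd3+/+ day 4 H3K27me3 peak (36.7%) and in 179 of the 1417 without (12.6%), a difference of 24.1 points (Newcombe interval 18.6 to 29.8). Within domains of at least 8000 and under 12000 bp the shares were 50.7% and 15.7%, but from 12000 bp up the intervals of the difference included 0. Of the 463 Mbd3 peaks, 30 touched a day 4 H3K27me3 peak, in lists where such peaks cover 0.637% of the domain bases. This cover, like those of H3K27ac and Mi2B above, is a share of bases. It is no chance level for peaks that meet a list by 1 bp, and an excess was not tested. With scores of at least 100, an Mbd3 peak was left in 6.09% of domains, and with 10% of the domain covered in 1.10%. The stage label of this Mbd3 sample says day 6, and its title was followed.

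Mi2B, the NuRD remodelling ATPase, was in 549 domains of Mbd3+/+ iPS cells (31.8%, against 8.01%), 66 of Mbd3flox/- iPS cells (3.83%, against 0.782%) and 750 of Mbd3-/- ES cells (43.5%, against 9.80%). The Mbd3flox/- iPS list had 3462 Mi2B peaks, against 26992 and 29546 in the other lists, and its part in the low count was not tested. On day 4 Mi2B was in 183 domains of Mbd3+/+ (10.6%, against 2.10%) and 527 of Mbd3flox/- cells (30.6%, against 6.24%), and on day 8 in 388 (22.5%, against 4.77%) and 379 (22.0%, against 4.75%). The Mbd3+/+ Mi2B samples of days 4 and 8 bear the stage labels day 7 and day 11. In midpoint windows of equal width, Mi2B met 9.86% of domains and 3.35% of shorter peaks in Mbd3+/+ iPS cells. In ES cells the shares were 13.6% and 3.24%. In Mbd3flox/- iPS cells they were 0.406% and 0.260%, a difference of 0.146 points (Newcombe interval -0.0778 to 0.580). On day 4 they were 1.62% and 0.417% in Mbd3+/+ and 7.25% and 1.82% in Mbd3flox/- cells. Oct4, the reprogramming and pluripotency factor, was in 2 domains of Mbd3+/+ MEF and 3 of Mbd3flox/- MEF (against 0.0542% and 0.0768% of all shared peaks). On day 4 it was in 185 domains (10.7%, against 2.82%) and 457 (26.5%, against 6.96%), in lists of 16785 and 33755 peaks. On day 8 of Mbd3flox/- cells it was in 282 (16.3%, against 4.64%), and in iPS cells in 201 (11.7%, against 2.98%) and 69 (4.00%, against 0.881%), in lists of 11881 and 3331. At equal midpoint windows Oct4 met 2.09% of domains and 1.09% of shorter peaks in Mbd3+/+ day 4 cells. In Mbd3flox/- cells the shares were 6.20% and 2.64% on day 4 and 4.17% and 2.00% on day 8. In iPS cells they were 2.38% and 1.19% in Mbd3+/+ and 0.638% and 0.343% in Mbd3flox/- cells. The latter difference, 0.295 points, had a Newcombe interval that included 0. MEF shares were 0.0580% and 0.0392% in Mbd3+/+ and 0 and 0.0490% in Mbd3flox/- cells. The day 4 Mi2B lists were of like length, 13930 and 14384 peaks, with median widths of 238 and 683 bp. With scores of at least 100, ES Mi2B was left in 18.7% of domains and Mbd3flox/- day 4 Oct4 in 14.6%, and with 10% of the domain covered in 19.6% and 9.39%.

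Of the 10 widest domains, 9 had between 17.8% and 53.7% of their length under H3K27me3 in each iPS and ES list. The widest, chr15:102732432-102817438 (85.0 kb), had H3K27me3 cover of 30.1%, 33.0% and 19.6% in Mbd3+/+ iPS, Mbd3flox/- iPS and ES cells. On day 4 its H3K27me3 cover was 1.24% in Mbd3+/+ and 0.379% in Mbd3flox/- cells, and on day 8 3.76% in Mbd3+/+ cells. Its H3K27ac was 35.7% and 22.1% in the 2 MEF lists, the most of the 10, 0 and 4.22% on day 4, and 19.2%, 20.3% and 32.1% in the 2 iPS lists and ES cells. This domain was acetylated in part before and after, with little called between.

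Next came chr1:78164436-78213654 (49.2 kb), with H3K27me3 cover of 17.8% in Mbd3+/+ iPS and 28.5% in Mbd3flox/- iPS cells and a value between these in ES cells. The domain chr11:96023480-96071241 (47.8 kb) had 23.2%, 24.0% and 25.4%, and 8.88% on Mbd3+/+ day 8. Then followed chr19:43654037-43699339 (45.3 kb) with 31.7%, 37.8% and 30.4%. All 3 had 17.8% to 37.8% of their length under H3K27me3, with H3K4me3 at 10.9% to 24.7% beside it. The domains chr2:38188108-38231156, chr2:105491369-105533636, chr10:42279405-42318231, chr19:44802457-44840614 and chr8:12379055-12416774, of 37.7 to 43.0 kb, had between 25.0% and 53.7% in the 3 lists.

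The remaining one was chr3:34536608-34574414 (37.8 kb), with H3K27me3 at 5.01%, 0.857% and 0.418% in Mbd3+/+ iPS, Mbd3flox/- iPS and ES cells. H3K27ac covered 86.6%, 80.4% and 83.0% of it in those cells, 64.7% in Mbd3flox/- day 8 cells and 0 in Mbd3+/+ day 8 cells. In MEF its H3K27ac was 3.71% in Mbd3+/+ and 3.00% in Mbd3flox/- cells. A domain under H3K27me3 in MEF was thus for the most part under H3K27ac in the pluripotent cells, and on day 8 it had H3K27ac in Mbd3flox/- and not in Mbd3+/+ cells.

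**Figure D5:**
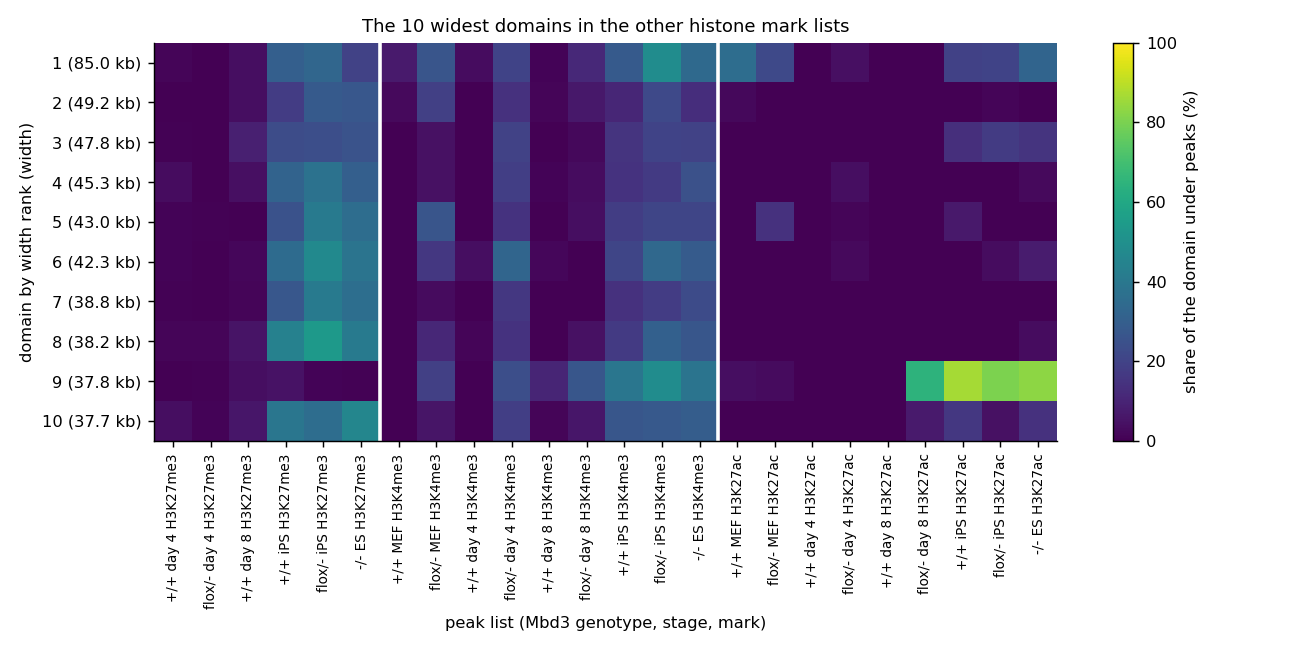
Share of each of the 10 widest domains under peaks (colour, 0 to 100%) in the H3K27me3, H3K4me3 and H3K27ac lists other than the MEF H3K27me3 lists that chose them (columns), domains ordered by width (rows). The domain of rank 9 (37.8 kb) alone is over 80% covered by H3K27ac in both iPS lists and ES cells and has under 6% H3K27me3 there.

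Mean H3K27me3 cover over the iPS and ES lists was highest at chr8:72896540-72902321 (5.78 kb), at 88.5%, 97.5% and 92.7% in Mbd3+/+ iPS, Mbd3flox/- iPS and ES cells. It also ranked among the 5 highest for iPS H3K4me3, at 67.8% and 75.2%, so both marks covered most of it. At chr11:85647072-85655318 (8.25 kb) H3K27me3 covered 75.3%, 98.6% and 77.2%, and MEF H3K27ac 49.6% in Mbd3+/+ and 100% in Mbd3flox/- cells. The others were chr15:85405823-85411178, chr2:179753084-179758760 and chr5:120878042-120891098, at 63.6% to 95.9%. Of the 5, chr2:179753084-179758760 had almost no H3K4me3, at 1.67% in Mbd3+/+ iPS cells, 0 in Mbd3flox/- iPS cells and 6.32% in ES cells.

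Among domains with no H3K27me3 in iPS or ES cells the widest was chr9:47335164-47357608 (22.4 kb), with H3K27ac at 18.2%, 15.7% and 23.2% in Mbd3+/+ iPS, Mbd3flox/- iPS and ES cells, and at 22.4% in Mbd3+/+ and 13.2% in Mbd3flox/- cells on day 8. At chr8:91556599-91576324 (19.7 kb) H3K27ac covered 91.8%, 65.7% and 72.8%, and on day 8 4.05% in Mbd3+/+ and 48.8% in Mbd3flox/- cells. At chr1:138838640-138856365 (17.7 kb) the values were 86.6%, 75.0% and 81.4%, after 29.6% and 86.5% on day 8. In the latter pair H3K27ac on day 8 was wider in Mbd3flox/- than in Mbd3+/+ cells, and in the widest it was the reverse. By contrast chr17:36287801-36305698 (17.9 kb) was acetylated in Mbd3+/+ iPS cells alone, at 69.0%, and had none on day 8. The domain chr1:63289685-63310169 (20.5 kb) had 34.0%, 12.0% and 16.1% in iPS and ES cells, and on day 8 5.60% in Mbd3+/+ and 0 in Mbd3flox/- cells.

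The highest H3K27ac in iPS cells was 100% in both genotypes and in ES cells, at chr5:120132273-120141083, chr7:152045630-152055093, chr10:60877286-60884204 and chr14:64124520-64130242, and at the 17.6 kb domain of chromosome 17 described above. None of the first 4 had an H3K27me3 peak on day 4, on day 8 or in iPS and ES cells. On day 8 their H3K27ac was 0, 81.1%, 78.8% and 74.2% in Mbd3+/+ cells and 65.7%, 100%, 100% and 100% in Mbd3flox/- cells, in the order named. All 4 thus had more H3K27ac cover in Mbd3flox/- than in Mbd3+/+ cells on day 8. These domains were chosen by their iPS H3K27ac. The median peak width of the day 8 H3K27ac list was 3032 bp in Mbd3flox/- and 1909 bp in Mbd3+/+ cells. Its part in the difference was not tested. Over all domains day 8 H3K27ac cover was 4.69% in Mbd3flox/- and 4.38% in Mbd3+/+ cells, with a peak in 208 and 262 domains.

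The widest differences in iPS H3K27me3 between the genotypes, besides the pair of domains that stood apart on day 4, were at chr16:91217370-91230825 (13.5 kb), with 7.03% in Mbd3+/+ and 84.6% in Mbd3flox/- iPS cells. There H3K27ac was 74.3% in Mbd3+/+ iPS cells and 0 in Mbd3flox/- iPS and ES cells, the reverse of H3K27me3. In the other direction, chr8:15027503-15032540 (5.04 kb) had H3K27me3 at 43.7% in Mbd3+/+ and 0 in Mbd3flox/- iPS cells, with H3K27ac at 33.4% and 90.3%. At chr6:83017085-83023430 (6.35 kb) H3K27me3 was 30.2% and 0 while H3K27ac was 65.1% and 71.9%. The second pair of values shows that a difference in H3K27me3 did not always come with one in H3K27ac.

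Other domains with much H3K27me3 left in the early lists were few. After the pair on chromosome 17, the highest mean day 4 cover was at chr15:76345679-76352691 (7.01 kb), with 12.6% in Mbd3+/+ and 1.90% in Mbd3flox/- cells, and 61.5%, 87.3% and 61.9% in Mbd3+/+ iPS, Mbd3flox/- iPS and ES cells. On day 8 chr10:79958627-79967228 (8.60 kb) had 37.2% in Mbd3+/+ cells, and 41.9%, 73.9% and 59.0% in iPS and ES cells. In these domains the early lists and the iPS and ES lists had the mark. The domain chr8:12474566-12480992 (6.43 kb) had H3K27me3 at 21.5% and H3K27ac at 39.4% in Mbd3+/+ day 8 cells, and no H3K27me3 in iPS and ES cells.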

How the data were processed

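Peak lists from mouse ChIP-seq libraries were analysed, 1 list per library, with positions in mm9. Peak calling used MACS 1.4.1 after Bowtie 0.12.5 alignment and CASAVA 1.8.2, tools named per the submitters' processing notes, with settings not given in the sources used here. Each peak's score was deposited by the authors and was used only to describe or filter peaks within a list. Read depth is unknown, so a missing peak means not detected, and peak number and width depend on depth and enrichment. Peaks of a list were merged and the bases of each domain under them were summed (Python 3.11.15, pandas 2.3.3, numpy 2.4.6); 1 shared base counted as a peak. bedtools 2.31.1 gave the same bases in 1725 of 1725 domains for the list checked, and the code was tested on simulated data. Shares have 95% Wilson intervals and differences 95% Newcombe intervals. Shares of all shared peaks, given after "against", count peaks of every width, and wider regions meet peaks more easily. Counts without such a share beside them describe the domains alone. Coordinates are 1-based. The members and lists were chosen with earlier results of these data known. Named regions are the 10 widest domains, the 3 nearest the threshold on each side, the 3 clusters of most domains, and the 5 highest by each of several cover measures: iPS and ES H3K27me3, width without it, iPS H3K27ac, iPS H3K4me3, day 4 and day 8 H3K27me3, and the genotype difference in each direction; examples are given from each. The pair of domains that stood apart on day 4, and leaving them out, was chosen after the values were seen. Alternatives were searched scores of at least 100, domains of at least 10000 bp, domains from the Mbd3flox/- MEF list, equal numbers of top peaks, midpoint windows and 10% cover. Gene names and sequences are not given, since the gene table used here is of another build.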

Additional observations from a re-analysis of the deposited data

Results flagged for a closer look

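At 5 steps between stages the 2 genotypes moved in opposite directions in the pooled cover of the domains. There was 1 library per genotype and stage, so the difference was not tested. For H3K4me3 from MEF to day 4 the change was 0.108 points in Mbd3+/+ and -0.630 points in Mbd3flox/- cells, and from day 4 to day 8 it was 0.807 and -8.18 points. H3K27ac changed by 1.66 points in Mbd3+/+ and -0.193 points in Mbd3flox/- cells from day 4 to day 8. Mi2B changed by 1.15 and -0.0589 points from day 4 to day 8, and by 3.22 and -3.14 points from day 8 to iPS cells.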

How the results depend on the processing

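Of 96 recomputed main values, 68 fell outside the 95% Wilson interval computed for the value as reported, and no difference changed sign. For shares of bases, and for the iPS difference in cover, that interval took the value as a count of domains. It is then a yardstick for the size of a change and no error of the value. The 16 recomputed differences between large domains and shorter peaks kept intervals above 0, but their size changed: for Mbd3+/+ iPS, Mbd3flox/- iPS and ES H3K27me3 they were 16.2, 24.3 and 17.9 points with scores of at least 100, 43.2, 43.6 and 42.7 at 10000 bp, 21.7, 24.9 and 22.8 with domains from the Mbd3flox/- MEF list, and 26.5, 32.3 and 23.2 with equal numbers of top peaks. For Mbd3+/+ day 4 they were 0.343, 5.09, 1.77 and 3.01. Of the other values 74 moved and 57 did not. The cause was not tested beyond what each alternative does by construction. Values are percent of domain bases or of domains, in the order Mbd3+/+ iPS, Mbd3flox/- iPS and ES unless named.

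With searched scores of at least 100, H3K27me3 cover was 9.00, 17.9 and 11.6, held domains 0.406, 7.36 and 2.55, H3K27ac cover 9.14, 4.01 and 11.5, and H3K4me3 cover in Mbd3+/+ and Mbd3flox/- MEF 0.994 and 14.5. Domains with a peak were 1.28 (Mbd3+/+ day 4), 0.174 (Mbd3flox/- day 4) and 0.870 (Mbd3+/+ day 8) for H3K27me3, 6.09 for Mbd3+/+ day 4 Mbd3, 18.7 for ES Mi2B and 14.6 for Mbd3flox/- day 4 Oct4, and the Mbd3flox/- minus Mbd3+/+ iPS difference was 8.89 points.

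For domains of at least 10000 bp, H3K27me3 cover was 23.0, 31.3 and 26.2, held domains 5.11, 18.7 and 9.73, and Mbd3flox/- iPS H3K4me3 cover 25.2. The 6 shares of domains with a peak, in the order above, were 41.6, 17.5, 34.3, 25.5, 60.3 and 40.6, and the iPS difference 8.29 points.

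With domains from the Mbd3flox/- MEF list, H3K27me3 cover was 15.3, 21.6 and 17.4. H3K4me3 cover was 15.1 and 18.6 in the iPS lists and 13.3 in Mbd3flox/- MEF, and H3K27ac cover 9.49 in Mbd3+/+ iPS and 11.8 in ES cells. H3K27me3 peaks were in 15.4 (Mbd3+/+ day 4) and 13.7 (day 8) of domains, and Mbd3, Mi2B and Oct4 as above in 12.9, 36.1 and 23.5.

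Equal numbers of top peaks gave H3K27me3 cover of 14.1 in Mbd3+/+ iPS and 14.8 in ES cells, held domains of 2.09 and 3.59, H3K27ac cover of 9.85 and 10.4, Mbd3flox/- MEF H3K4me3 cover of 14.0, and an iPS difference of 10.5 points. In midpoint windows H3K27me3 cover was 22.2 and 30.6 in the iPS lists, H3K4me3 cover 2.86 and 24.9 in MEF and 29.7 and 33.6 in iPS, and H3K27ac cover 13.4 in Mbd3+/+ iPS and 20.0 in ES cells. Demanding 10% of the domain, the 6 shares were 0.232, 0.116, 4.87, 1.10, 19.6 and 9.39. Mbd3flox/- MEF H3K4me3 peaks set to equal widths, an alternative chosen after the data were seen, lay in 60.2 of domains.

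No paired analysis was possible because the labels give no replicate numbers and each group has 1 library. Depth is unknown, which limits every statement on a missing peak.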
